A study of Homo sapiens with 6 samples.

Results

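The IL-1 family cytokines, their antagonists and their receptors were followed in RNA-Seq of HCC1806/HM3 cells. The group was set by name and holds 10 genes: the ligands IL1A, IL1B, IL18, IL33 and IL36G, the antagonists IL1RN and IL36RN, and the receptor genes IL1R1, IL1R2 and IL1RAP. Of these 10 genes, 9 had a row among the 17860 genes of the table and 8 had a value in all 6 samples. IL33 was not analysed here.

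HCC1806 is a human triple-negative breast cancer line of squamous type, and HM3 is a derivative isolated from liver metastases after repeated passage through the mammary fat pad of nude mice. All cells carried a lentiviral shRNA vector and were selected with G418. The 3 control samples carried a control shRNA (shNC) and the 3 knockdown samples an shRNA against MSLN (shMSLN), the gene of the cell surface protein mesothelin. Each group is described as a single stably infected line, and no source used here says whether the replicates were separate cultures or which of the listed shRNA sequences was used, so p-values measure the spread between these samples only.

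MSLN itself was measured first. Its level was 231, 226 and 227 CPM (read counts relative to library size, scaled with TMM factors, which correct for library composition) in the shNC samples and 37.15, 36.2 and 35.4 CPM in the shMSLN samples. The groups did not overlap, and MSLN fell to 15.9% of the control level (log2 fold change -2.65, SE 0.042, edgeR adjusted p = 3.97e-15). Samples held between 17507837 and 18512135 estimated counts, so that 1 read was worth about 0.0538 to 0.0565 CPM. All 10 epithelial marker genes reached 1 TPM, a transcript share scaled for gene length and depth, with a summed level of 7069 to 7708 TPM in shNC and 6919 to 7236 TPM in shMSLN samples. Single epithelial markers changed in both directions within this sum. KRT6A, KRT5, TP63 and KRT18 fell, to 48.79%, 77.04%, 85.66% and 89.45% of control. CDH1 and KRT17 rose, to 110.8% and 112.0% (edgeR adjusted p below 0.05 for each named gene), and the other epithelial markers did not pass. Of 10 blood cell markers 4 reached 1 TPM in any sample. Over the 6 samples, PTPRC was at 2.26 to 4.19 TPM, CD14 at 2.22 to 3.13 TPM and LYZ at 2.4 to 4.7 TPM. CSF1R, the macrophage growth factor receptor, was at or below 0.20 TPM throughout. The summed level of these 10 markers was 9.30 to 11.85 TPM in shNC and 12.25 to 16.3 TPM in shMSLN samples. HBA1, at 5.34 TPM in shMSLN replicate 1 and without a value in the other knockdown samples, is part of that sum. The part of this difference in the results was not tested. Of 8 stromal and endothelial markers 3 reached 1 TPM, with sums of 15.4 to 16.1 and 16.3 to 16.7 TPM.

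IL-1α and IL-1β, the products of IL1A and IL1B, bind the signaling receptor IL1R1, which then recruits the accessory protein IL1RAP and passes the signal through MYD88 and IRAK kinases to NF-κB. IL1RN encodes a receptor antagonist that occupies IL1R1 without signaling, and IL1R2 encodes a decoy receptor. IL-18, IL-33 and the IL-36 cytokines use related receptors, and epithelial cells are a known source of several of these ligands.

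Most of the ligand genes lie side by side. In the GENCODE annotation of GRCh38, 9 family genes from IL1A to IL1RN occupy 360.1 kb at chr2:112773915-113134016, and 6 receptor genes from IL1R2 to IL18RAP occupy 460.7 kb of the same chromosome at chr2:101991844-102452565. IL18 lies apart at chr11:112143251-112164117 on the minus strand, and IL1RAP at chr3:190514051-190659750 on the plus strand. Positions 250 to 1 before the transcript start were read from RefSeq (GRCh38.p14), which held such windows for 9 of the 10 members (not for IL18). The stretches shown are the parts of these windows that no annotated exon covers, for both agonists, for the antagonist and for the accessory receptor, since these 4 genes include members that fell, one that rose and one that did not pass the test. Each runs 5′ to 3′ along the strand of its gene, and capitals mark a match to a motif.
IL1A, chr2:112784591-112784743, minus strand: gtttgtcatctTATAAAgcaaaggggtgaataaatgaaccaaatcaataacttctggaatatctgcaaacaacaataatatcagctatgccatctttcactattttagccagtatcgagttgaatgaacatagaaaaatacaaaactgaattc
IL1B, chr2:112836904-112837029, minus strand: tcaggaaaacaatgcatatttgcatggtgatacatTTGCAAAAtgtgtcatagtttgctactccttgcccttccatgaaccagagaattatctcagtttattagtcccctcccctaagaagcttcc
IL1RN, first of 3 starts, chr2:113117721-113117892, plus strand: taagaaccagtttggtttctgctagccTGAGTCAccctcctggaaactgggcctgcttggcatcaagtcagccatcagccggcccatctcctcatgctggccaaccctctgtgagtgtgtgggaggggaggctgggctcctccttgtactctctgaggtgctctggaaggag
IL1RAP, chr3:190513835-190514050, plus strand: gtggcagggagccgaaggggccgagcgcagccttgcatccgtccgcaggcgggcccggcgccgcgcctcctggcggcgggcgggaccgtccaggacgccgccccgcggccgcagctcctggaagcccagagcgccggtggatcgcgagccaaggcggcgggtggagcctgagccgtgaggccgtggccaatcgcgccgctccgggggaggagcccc

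The capitals in IL1A are a TATA match (TATAAA), in IL1B a C/EBP match (TTGCNNAA) and in IL1RN an AP-1 match (TGANTCA), which begins 223 bases before the start. No capitals appear in IL1RAP, whose stretch is 79.2% G and C against 31.4% in IL1A, 40.5% in IL1B and 58.1% in IL1RN. Both strands were searched over whole windows of 300 bases, 250 before to 50 after the start, and the NF-κB consensus was searched as well. Among 35116 such windows of all genes, 7.71% held the AP-1 letters, 11.3% the NF-κB consensus, 10.5% the C/EBP letters and 11.5% the TATA letters. In the full windows, IL1A also held AP-1 letters 12 bases before and 39 bases after the first of its 2 starts. TATA letters also lay in windows of IL1RN, IL1R1 and IL1R2, beginning 30 bases before a start in IL1RN and in IL1R2. C/EBP letters also lay in a window of IL1R1, beginning 35 bases after a start. NF-κB letters were found for IL1R2 and IL36RN only among the 9 members. Several members had multiple windows, whereas the shares over all genes are per window, so the numbers of members cannot be set against them. A match is a run of letters, not a site shown to be bound.

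The members spanned a wide range of levels in control cells. On the per-length TPM scale, IL18 stood highest at 307 ± 8.72 TPM (SD, n = 3, as for all group values below), followed by the antagonist IL1RN at 22.7 ± 1.06 TPM and the accessory receptor IL1RAP at 17.4 ± 0.664 TPM. IL1B at 9.92 ± 2.10 TPM and IL1A at 8.67 ± 0.476 TPM overlapped each other. IL1R1 followed at 3.13 ± 0.238 TPM, and IL36G, IL36RN and IL1R2 lay at 0.33 ± 0.121, 0.297 ± 0.160 and 0.18 ± 0.0608 TPM, each overlapping its neighbor in the order. In shMSLN cells the order changed at the second place, where IL1RAP (23.6 ± 1.23 TPM) stood above IL1RN (14.1 ± 0.438 TPM) without overlap.

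**Figure D1:**
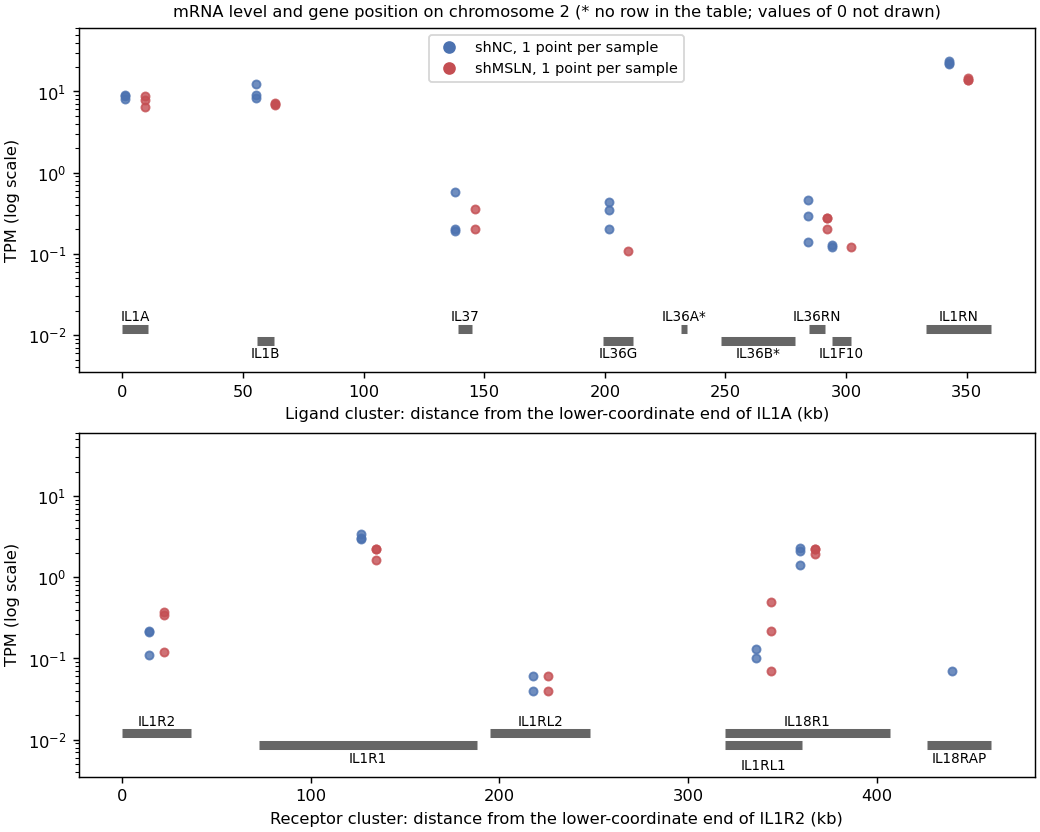
Level of each family gene (TPM, log scale, 1 point per sample) above its position in the ligand cluster and the receptor cluster of chromosome 2, given as distance in kb; grey bars are the genes, an asterisk marks a gene with no row, and values of 0 are not drawn. IL1A, IL1B and IL1RN at the edges of the ligand cluster lie between 6.38 and 23.87 TPM, whereas the genes between them lie below 1 TPM.

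A total of 6 members were abundant enough to be tested, and 5 of them passed an adjusted p of 0.05 in edgeR's quasi-likelihood test, 4 lower and 1 higher in shMSLN cells. Over all 14552 tested genes, 34.6% passed, 18.0% lower and 16.6% higher. IL1RN, IL18, IL1R1 and IL1B fell, IL1RAP rose, and IL1A did not pass. In such bulk samples, fewer cells with a transcript and less of it per cell cannot be told apart. The median log2 fold change of the 6 members was -0.42, against 0.0019 over all tested genes. These 6 genes are too few to be read against values over all genes, and the members were chosen with earlier results of these data known. The 3 remaining listed members, IL36G, IL36RN and IL1R2, had at most 10 reads in any sample.

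**Figure D2:**
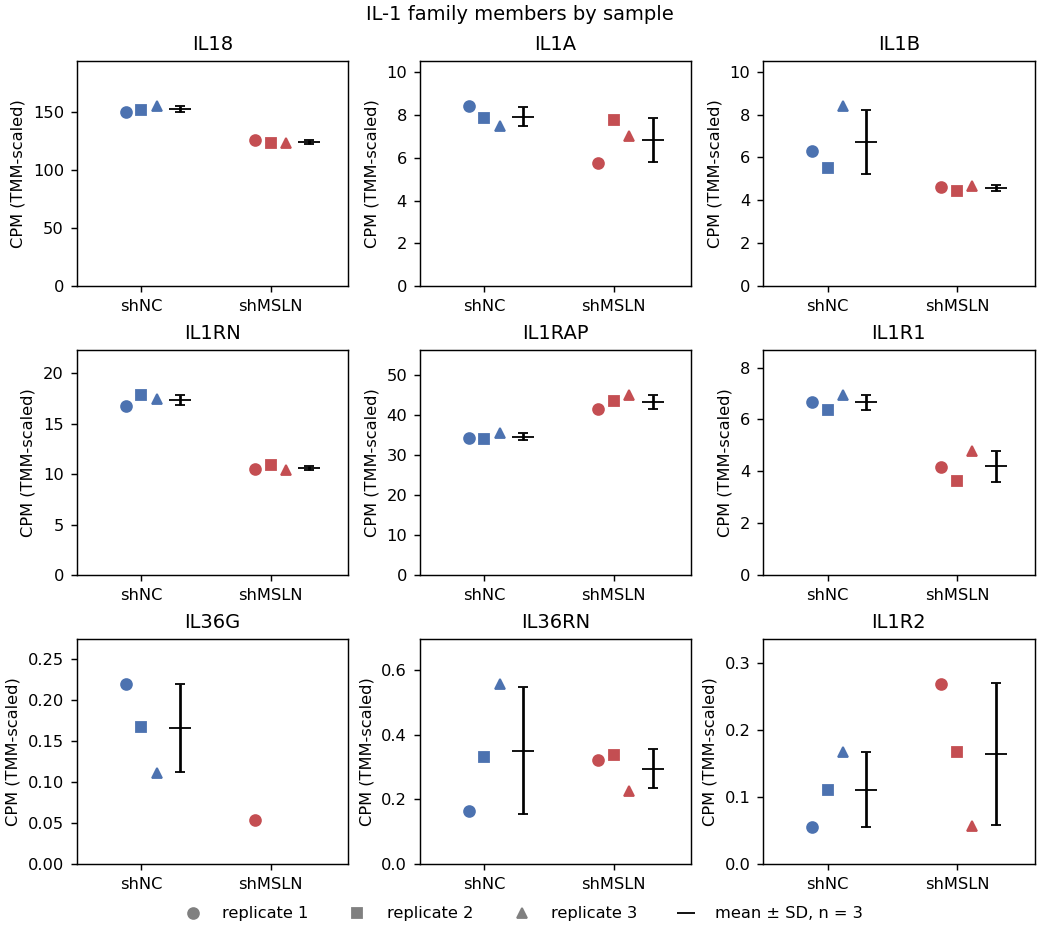
CPM of the 9 listed members in each sample; shapes are replicates, and the bar beside each group is the mean ± SD where all 3 samples have a value. For IL18, IL1B, IL1RN and IL1R1 every shMSLN sample lies below every shNC sample, for IL1RAP every shMSLN sample lies above, and the IL36G, IL36RN and IL1R2 panels rest on a few reads each.

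Among the ligands, IL18 was the most abundant. It encodes a cytokine that is made as an inactive precursor and cut by caspase-1. Its level was 149.8, 152 and 155 CPM in shNC and 126, 123 and 123 CPM in shMSLN samples. The groups did not overlap, although the change was the smallest among the members that fell, to 81.5% of control (log2 fold change -0.30, SE 0.0375, edgeR adjusted p = 2.81e-05).

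IL1B, the inducible and secreted IL-1 agonist, was measured at 6.29, 5.49 and 8.40 CPM in shNC and 4.62, 4.43 and 4.69 CPM in shMSLN samples. The control samples spread far more than the knockdown samples, with replicate 3 the highest, and the groups did not overlap. IL1B fell to 68.1% of control (log2 fold change -0.55, SE 0.158, edgeR adjusted p = 0.0138). Single libraries decided this call: it was lost without shNC replicate 3 (-0.36, edgeR adjusted p = 0.0885) and without shMSLN replicate 2 (-0.53, edgeR adjusted p = 0.0507).

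IL1A, which encodes the agonist that also acts as an alarmin from damaged cells, did not separate the groups. It was found at 8.43, 7.87 and 7.51 CPM in shNC and 5.75, 7.80 and 7.003 CPM in shMSLN samples. Replicates 1 and 3 of shMSLN lay below all controls, and replicate 2 lay within their range. The log2 fold change was -0.21 (95% limits -0.459 to 0.029, edgeR adjusted p = 0.202), an interval that holds both no change and a fall as large as that of IL18. The value rested on single libraries, at -0.102 without shMSLN replicate 1 (edgeR adjusted p = 0.566) and -0.316 without shMSLN replicate 2.

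IL36G encodes the epithelial cytokine IL-36γ. Its counts were 4, 3 and 2 reads in the shNC samples and 1 read in shMSLN replicate 1, with no value given for shMSLN replicates 2 and 3. It could not be tested, and its 9 control reads carry an exact 95% Poisson interval of 4.12 to 17.1 reads. Such intervals cover counting error only.

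Of the antagonists, IL1RN changed most clearly. Its level was 16.8, 17.8 and 17.45 CPM in shNC and 10.56, 10.9 and 10.45 CPM in shMSLN samples. Replicates lay close together within each group, with a clear gap between 17.4 ± 0.528 and 10.6 ± 0.225 CPM. IL1RN fell to 61.15% of control (log2 fold change -0.71, SE 0.0769, edgeR adjusted p = 6.11e-06), the smallest adjusted p among the members. IL36RN, which encodes the antagonist of the IL-36 receptor, was listed at 3, 6 and 10 reads in shNC and 5.99, 6 and 4 reads in shMSLN samples. The summed counts of 19 (exact 95% Poisson interval 11.4 to 29.7) and 16 (9.15 to 26.0) were not distinguishable at this depth.

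The receptor genes moved in different directions. IL1R1, the signaling receptor, was measured at 6.68, 6.36 and 6.935 CPM in shNC and 4.17, 3.61 and 4.78 CPM in shMSLN samples. All knockdown samples lay below all controls, and IL1R1 fell to 62.6% of control (log2 fold change -0.67, SE 0.138, edgeR adjusted p = 0.00163). Exons of IL1R1 overlap those of IL1R1-AS1 on the opposite strand, and the strand setting of the counting is not given in the sources used here, so reads of the pair cannot be told apart.

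IL1RAP, the accessory chain shared by the receptors of IL-1, IL-33 and IL-36, was the only tested member that rose. It was found at 34.25, 33.9 and 35.4 CPM in shNC and 41.4, 43.3 and 44.85 CPM in shMSLN samples. The groups were clearly apart, at 125% of control (log2 fold change 0.32, SE 0.0536, edgeR adjusted p = 0.000323). With shMSLN replicate 1 as the only knockdown sample the call was lost (0.26, edgeR adjusted p = 0.0666). IL1RAP shares exon sequence with the long noncoding RNA gene AC108747.1 on the same strand.

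The size of the IL1RAP change depended on the scale. In TPM its level was 16.91, 18.14 and 17.09 in shNC and 22.2, 24.17 and 24.47 in shMSLN samples, and limma on log2(TPM + 0.1) gave a log2 fold change of 0.44 (limma adjusted p = 0.000737). The number of reads per unit of FPKM (a level scaled for gene length and depth), which follows the gene length that the authors' quantification assigned in each sample, was 1.004, 0.963 and 1.033 in shNC and 0.952, 0.926 and 0.949 in shMSLN samples, relative to the shNC mean. All knockdown samples were below all controls, at 94.2% of the control mean. Over 12083 genes at or above 1 FPKM in every sample, the 5th to 95th percentile of this share was 97.0 to 102.6%, and it was between 99.9 and 100.9% for IL1A, IL1B, IL1RN and IL18.

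IL1R2, the decoy receptor, was at the edge of detection, with 1, 2 and 3 reads in shNC and 5, 3 and 1 reads in shMSLN samples. The ranges overlapped, and the sums of 6 (exact 95% Poisson interval 2.20 to 13.1) and 9 (4.12 to 17.1) did not separate the groups at this depth.

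Without overlap between the groups were 5 of the 6 tested members, against 46.2% of all tested genes, a share against which 6 genes are too few to be read.

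**Figure D3:**
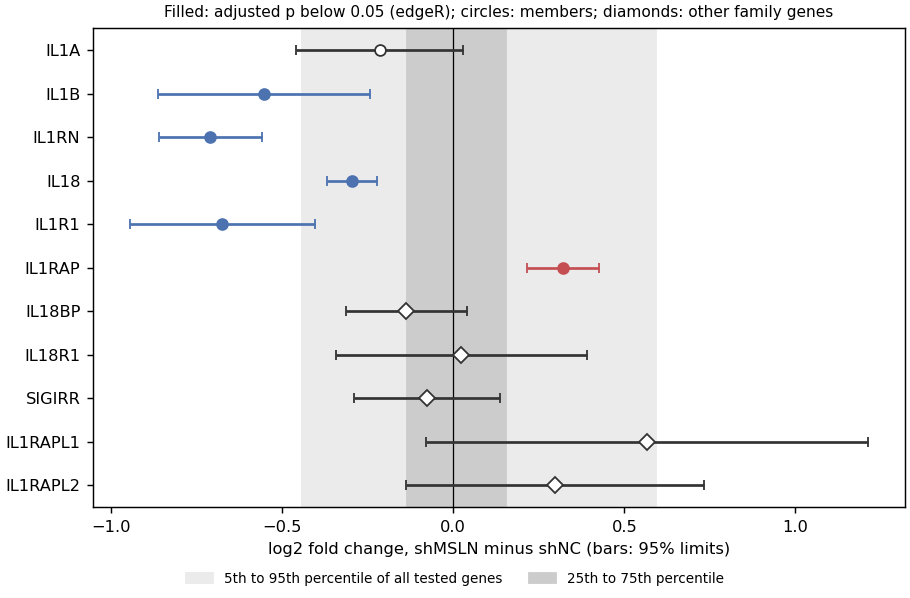
Log2 fold change (shMSLN minus shNC) of the tested members (circles) and other tested family genes (diamonds), with bars to the 95% limits over the 5th to 95th percentile (light band, -0.44 to 0.59) and the 25th to 75th percentile (dark band, -0.14 to 0.16) of all tested genes. IL1RN, IL1R1 and IL1B lie left of the light band, IL18 and IL1RAP lie inside it but outside the dark band, and the open symbols are genes that did not pass the test.

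Because the antagonist and the agonists compete for IL1R1 as proteins, their mRNA balance was taken within each sample as a ratio of TPM values. Such a ratio does not measure the balance of the proteins at the receptor. IL1RN stood at 1.20, 1.39 and 1.10 times the sum of IL1A and IL1B in shNC samples and at 1.04, 0.942 and 0.927 times in shMSLN samples. Every knockdown sample lay below every control, and the mean log2 ratio went from 0.291 ± 0.175 to -0.048 ± 0.087. The difference of -0.34 gave p = 0.1 in an exact two-sided permutation test, the smallest value that 3 against 3 samples allow. The ratio of IL1R2 to IL1R1 was 0.03235, 0.0746 and 0.0691 in shNC and 0.165, 0.207 and 0.0546 in shMSLN samples, with overlapping ranges (difference of the mean log2 ratio 1.16, exact two-sided permutation p = 0.3). A ratio of IL36RN to IL36G could be formed in the 3 shNC samples and in shMSLN replicate 1 only. It was 0.318, 0.829 and 2.30 in the controls and 2.545 in the knockdown sample, where the denominator is 1 read, so the groups were not compared.

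**Figure D4:**
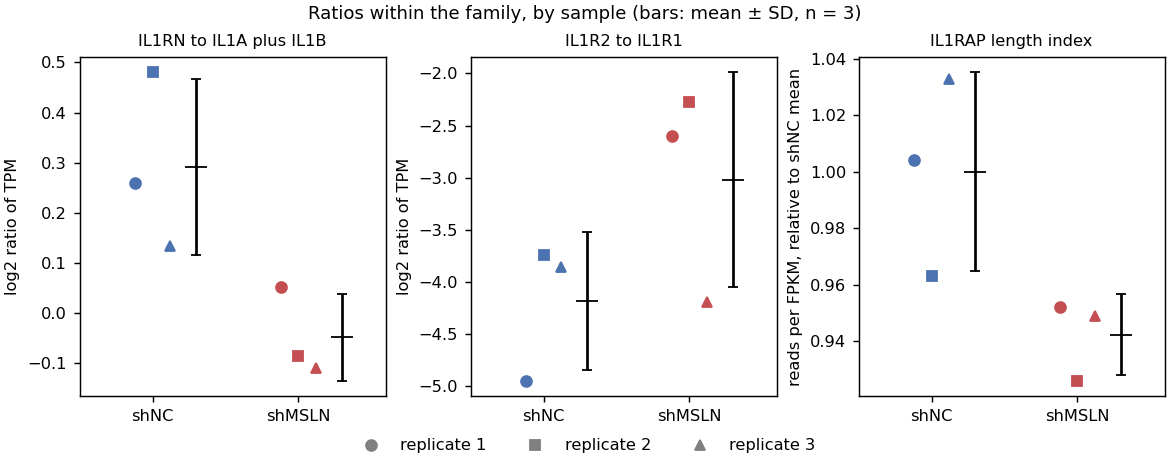
Log2 ratio of TPM values for IL1RN to IL1A plus IL1B and for IL1R2 to IL1R1, and reads per FPKM of IL1RAP relative to the shNC mean, in each sample (shapes are replicates, bars are mean ± SD, n = 3). The IL1RN ratio and the IL1RAP index show no overlap between groups (means 0.291 and -0.048 for the ratio), and the IL1R2 ratio shows shMSLN replicate 3 within the range of the controls.

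The other genes of the family did not pass the test. Of 12 such genes 10 had a row, 5 were tested and 0 passed in edgeR, DESeq2 or limma-voom, with 0 at an unadjusted p below 0.05 in any of them. Over all tested genes, 34.6% passed in edgeR, and 5 genes are too few to be read against that share. IL18BP, the secreted inhibitor of IL-18, was at 14.6 ± 1.49 CPM in shNC and 13.25 ± 0.780 CPM in shMSLN cells (log2 fold change -0.14, edgeR adjusted p = 0.257). Its exons overlap NUMA1 on the opposite strand. SIGIRR, an inhibitory receptor of the family, was at 12.7 ± 1.20 and 12.05 ± 1.74 CPM (-0.077, edgeR adjusted p = 0.623), and IL18R1, the binding chain of the IL-18 receptor, at 2.74 ± 0.447 and 2.79 ± 0.288 CPM (0.023, edgeR adjusted p = 0.936). IL1RAPL1 and IL1RAPL2, receptor-like genes best known from neurons, had higher values in every shMSLN sample than in any control. Groups were without overlap for 46.2% of all tested genes. IL1RAPL1 was at 0.532 ± 0.0924 CPM in shNC against 0.794 ± 0.110 CPM in shMSLN cells, and IL1RAPL2 at 1.46 ± 0.223 against 1.79 ± 0.0386 CPM. Neither passed (edgeR adjusted p = 0.203 and 0.323). IL1RL1, the IL-33 receptor, whose exons overlap IL18R1 on the same strand, had 22 summed reads in shMSLN (exact 95% Poisson interval 13.8 to 33.3) against 6 (2.20 to 13.1) in shNC samples. The sum is uneven, since shMSLN replicate 2 alone holds 13.7 of these reads. IL37, IL1F10, IL1RL2 and IL18RAP had at most 3 reads in any sample, the IL-18 receptor partner IL18RAP having 1 read in all, and IL36A and IL36B were not analysed here.

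The steps from receptor to NF-κB were read from a list of 17 genes, all of them tested. Of these, 2 rose, 6 fell and 9 did not pass, with a median log2 fold change of -0.060. Over all tested genes, 16.6% rose and 18.0% fell. IRAK2, a kinase-like adaptor of the receptor complex, was at 26.8, 32.7 and 31.7 CPM in shNC and 14.8, 13.25 and 14.3 CPM in shMSLN samples and fell to 46.5% of control (log2 fold change -1.10, edgeR adjusted p = 1.53e-07). CHUK, the IKKα kinase, fell to 49.9% (26.9 ± 0.867 to 13.5 ± 1.39 CPM, edgeR adjusted p = 2.06e-07). IRAK1, the kinase that acts beside IRAK2, rose to 152.9% of control, from 44.6 ± 4.04 to 68.2 ± 2.41 CPM (edgeR adjusted p = 2.22e-06). Of the Pellino ubiquitin ligases in the list, PELI2 fell to 71.3% (edgeR adjusted p = 4.06e-05) and PELI1 rose to 128.3% (edgeR adjusted p = 0.000515). MYD88, the adaptor itself, was at 79.3 ± 3.33 and 74.4 ± 2.61 CPM and did not pass (edgeR adjusted p = 0.155).

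The genes for cutting and releasing IL-1 cytokines were read from a further list. Of 21 listed genes 20 had a row and 19 were tested: 2 rose, 4 fell and 13 did not pass, close to the 34.6% of all tested genes that passed, and the median log2 fold change was 0.016. CASP1, whose product activates IL-1β and IL-18, was at 110.4 ± 2.75 CPM in shNC and 111.8 ± 6.30 CPM in shMSLN cells (95% limits of the log2 fold change -0.073 to 0.109). CASP8, an alternative IL-1β processing enzyme, rose to 122.9% of control (log2 fold change 0.30, edgeR adjusted p = 0.000103) and CARD8, an inflammasome sensor, to 118% (edgeR adjusted p = 0.00941). AIM2, the cytosolic DNA sensor, fell from 11.4 ± 0.981 to 7.33 ± 0.339 CPM (log2 fold change -0.63, edgeR adjusted p = 0.000248). CTSS, a lysosomal protease, fell to 74.5% (edgeR adjusted p = 0.000122), and NINJ1, which ruptures the plasma membrane of dying cells, to 78.7% (edgeR adjusted p = 0.00367).

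Genes known to be induced by IL-1 formed the list with the lowest median. Of 31 genes 28 had a row and 20 were tested: 13 fell, 1 rose and 6 did not pass, with a median log2 fold change of -0.58, where 18.0% of all tested genes fell and 16.6% rose. This list was chosen with earlier results of these data known, so its counts and median describe the listed genes and are not an independent test. Most are also induced by other NF-κB stimuli. LCN2, an iron-sequestering defense protein, was at 43.3, 47.5 and 44.4 CPM in shNC and 18.8, 17.5 and 20.0 CPM in shMSLN samples and fell to 41.6% (log2 fold change -1.27, edgeR adjusted p = 3.48e-09). The NF-κB feedback inhibitors TNFAIP3 and NFKBIA fell to 52.0% and 67.9% (edgeR adjusted p = 7.74e-08 and 1.66e-07). BIRC3, an inhibitor of apoptosis, fell to 40.7% (38.9 ± 5.76 to 15.8 ± 0.760 CPM, edgeR adjusted p = 9.76e-08). S100A9, a subunit of calprotectin, fell to 28.8% (6.95 ± 0.0998 to 2.00 ± 0.209 CPM, edgeR adjusted p = 3.57e-07), whereas the gene of its partner subunit, S100A8, had at most 3 reads per sample. SOD2, the mitochondrial superoxide dismutase, was the gene that rose (449.9 ± 43.8 to 520.0 ± 7.97 CPM, edgeR adjusted p = 0.00704), but did not pass on the log2 TPM scale (0.039, limma adjusted p = 0.702).

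**Figure D5:**
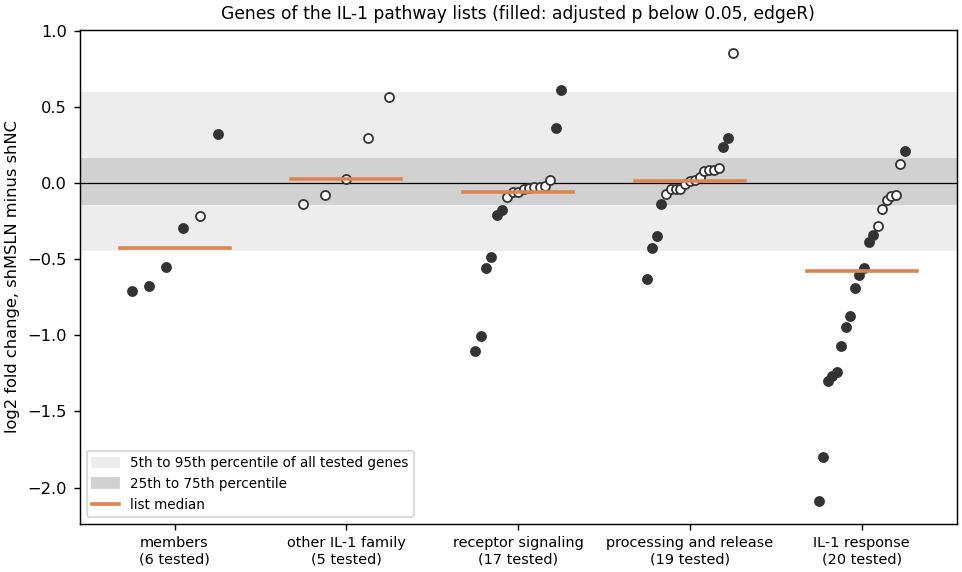
Log2 fold change (shMSLN minus shNC) of every tested gene in the 5 lists, ordered by size within each list, with filled points for genes past an adjusted p of 0.05 in edgeR, orange lines for list medians and grey bands for the percentiles of all tested genes. The medians are -0.42 for the members, 0.023 for the other family genes, -0.060 for receptor signaling, 0.016 for processing and release and -0.58 for the IL-1 response genes.

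Outside these lists, the genes whose log2 CPM most resembled that of IL1RN over the 6 samples were PRKCD (Pearson r = 0.9994), IFNGR2 (0.9992), ANKRD33B (0.9992), LBR (0.9991) and IGIP (0.9988). The 6 points fall into the 2 groups, so these values mainly restate a group difference with little spread: among 11683 genes compared, 13.9% had r above 0.9.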

How the data were processed

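RNA-Seq of 3 shNC and 3 shMSLN samples was used, grouped by their titles. RNA was enriched with oligo(dT) and sequenced by BGI. The authors deposited estimated counts, TPM and FPKM per gene, unscaled in the first case and scaled for length and depth in the others. Per the submitters' processing notes the build was GRCh38.p13; the quantifier and annotation are not given in the sources used here. Some shMSLN values carry missing marks, so 1287 of 17860 genes were left out of the fit. Marks fell on 1103, 695 and 695 genes in shMSLN replicates 1, 2 and 3, which held 0, 405 and 393 genes at 0. Each shNC sample held 0 marks and 1094 to 1150 genes at 0. Whether marks stand for values of 0 was not tested. Of counts over 100, 47.67% and 47.75% were whole numbers in shMSLN replicates 2 and 3, against 3.36% to 7.02% in the other samples. This difference is partly confounded with group, and its part in the results was not tested.

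Estimated counts were rounded and tested in edgeR 4.0.16 (R 4.3.3, TMM scaling, filterByExpr, quasi-likelihood test, no covariate), with Benjamini-Hochberg adjustment over 14552 genes. Levels of different genes were compared in TPM only. In data simulated for this comparison, 93.5% of 200 genes changed 2-fold among 14542 were recovered (187 genes), and 22 unchanged genes were called as well; smaller changes, such as those of the members, were not simulated. Alternatives used DESeq2 1.42.0, limma 3.58.1, other scalings and filters, and left out single samples; the fits with shMSLN replicate 1 alone and on log2 TPM were added after the data were seen. Named were all members and family genes, the 5 genes of smallest adjusted p in each pathway list and the 5 most like IL1RN; MYD88, CASP1, S100A8 and SOD2 were added after their values were seen. The members and lists were chosen with earlier results of these data known.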

Additional observations from a re-analysis of the deposited data

How the results depend on the processing

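Under 10 alternatives that kept all 6 samples, 5 members passed in each, in their main directions, and between 3809 (DESeq2) and 5789 (replicate block) genes passed against 5032. In their deviations from the group means, same-numbered samples correlated weakly, at 0.165, 0.0764 and 0.0718, each best with its own number. More genes passed with the replicate block than in the main fit, which used no pairing, and no member's call changed. Leaving out 1 sample gave 4 to 5 members, the lost call being IL1B, and 3695 to 5399 genes. With shMSLN replicate 1 alone, whose spread is then assumed to be that of the controls, 1797 genes and 3 members passed, and IL1B (-0.538, adjusted p = 0.175) and IL1RAP did not; the smaller number of samples is part of that setting. The lists of receptor signaling and of processing and release then held 5 and 3 calls. Of the calls over all genes, 47.9% were higher in the main fit, 57.5% with upper-quartile scaling and 60.8% on log2 TPM, with no member's direction changed.

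The IL1RN ratio difference was -0.418 to -0.245 with 1 sample left out, and that of IL1R2 to IL1R1 0.779 to 1.75, the highest without shMSLN replicate 3. The ratio of IL36RN to IL36G has 1 knockdown sample, with 1 read in the denominator, so no range of a group difference is given. No paired value or value without shMSLN replicate 1 could be formed. Depth limits IL36G, IL36RN and IL1R2: with every gene tested, IL36RN (-0.242, adjusted p = 0.772) and IL1R2 (0.557, adjusted p = 0.629) did not pass in edgeR, nor did IL1RL1 (1.877, adjusted p = 0.0878).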
